A study of Mus musculus with 5 samples.

Results

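Malat1, Neat1 and Kcnq1ot1 are long noncoding RNAs (lncRNAs) that stay in the nucleus after transcription. These 3 genes were chosen by name from the gene lists of 5 single-cell RNA-sequencing libraries, which hold 31053 genes in 4 libraries and 32285 in the other one, and all 3 were detected in each library. Their share of the unique molecular identifiers (UMIs, 1 per captured RNA molecule) of each cell barcode was followed across the libraries and set beside the barcode's total UMIs, its mitochondrially encoded share and its ribosomal protein share. The cells came from the submandibular salivary gland of C57BL/6 mice. Salivary gland organoids (mSGOs), three-dimensional cultures grown from gland cells in Matrigel with Wnt3a- and R-spondin1-conditioned WRY medium that also held the ROCK inhibitor Y27632, were pooled from 4 animals aged 8 to 12 weeks. One mSGO library was non-irradiated, one had received 7 Gy of photons on day 5 of culture and one 7 Gy of protons (plateau) on day 5, and all of them were collected on day 7. A non-irradiated 11-day mSGO library came from a different batch of 4 animals, whose age the labels do not give, and was run separately. The last library was freshly isolated gland tissue from mice of 8 to 12 weeks, for which the number of animals is not given. From every sample 45000 cells that excluded propidium iodide, a dye that enters dead cells, were sorted. Each group is 1 library, so library, animals, run and condition cannot be told apart, no test was made, and every interval below is a 95% interval of counting error alone.

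Malat1 is an abundant RNA of the nuclear speckles, the bodies where splicing factors gather. Neat1 is made as a short and a long isoform, and the long one is the scaffold on which the paraspeckle body is built. Kcnq1ot1 is transcribed antisense to Kcnq1 from the paternal chromosome and silences neighbouring genes of that imprinted domain in cis. Because the 3 RNAs remain in the nucleus, their share of a droplet's RNA is often read beside the mitochondrially encoded and ribosomal protein shares, which come mostly from the cytoplasm, when intact cells are told from nuclei, fragments or free RNA.

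In GRCm39, Malat1 (ENSMUSG00000092341) lies on the minus strand at chr19:5845717-5853602 and Neat1 (ENSMUSG00000092274) lies on the same strand at chr19:5874736-5897132. Kcnq1ot1 (ENSMUSG00000101609) is on the minus strand at chr7:142731402-142850327. All 3 are annotated as lncRNA genes, and the longest annotated transcripts, Malat1-201 with 7886 bases, Neat1-201 with 22397 and Kcnq1ot1-201 with 93092, each consist of 1 exon. The annotation is not that of the counting, whose build is stated differently by the sources, so the coordinates place the genes only.

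The 3′ kit captures RNA by an oligo-dT primer, which pairs with a poly(A) tail and can pair with a run of As inside a transcript. Mature Malat1 and the long Neat1 isoform are known to be cut by RNase P and to end without a poly(A) tail, next to an A-rich stretch of the genome, whereas the short Neat1 isoform is polyadenylated. The last 60 bases of 4 annotated transcripts are therefore shown first, 5′ to 3′ on the transcribed strand, with the polyadenylation signal AATAAA in capitals where it lies within the last 50 bases.
Malat1-201, chr19:5845717-5845776: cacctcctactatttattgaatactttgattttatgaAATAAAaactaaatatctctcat
Neat1-202, the short isoform, chr19:5892327-5892386: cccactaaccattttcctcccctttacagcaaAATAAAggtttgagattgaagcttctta
Neat1-201, the long isoform, chr19:5874736-5874795: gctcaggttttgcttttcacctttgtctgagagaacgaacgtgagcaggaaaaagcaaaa
Kcnq1ot1-201, chr7:142757195-142757254: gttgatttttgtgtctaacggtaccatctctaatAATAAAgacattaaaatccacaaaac
Of these 4 ends, 3 hold the signal, 17 to 22 bases from the last base, and that of Neat1-201 does not. Searched on the transcribed strand, the signal was present in the last 50 bases of the longest transcript of 35.4% of 78348 annotated genes. The second set shows A-rich tracts, taken as stretches of 20-base windows with at least 16 As and printed in capitals with flanking bases, since these are where an oligo-dT primer could pair inside the RNA.
Malat1-201, bases 7576 to 7595, chr19:5846008-5846027: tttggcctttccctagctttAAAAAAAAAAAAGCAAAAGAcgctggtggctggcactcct
Neat1-201, bases 12976 to 13011, chr19:5884122-5884157: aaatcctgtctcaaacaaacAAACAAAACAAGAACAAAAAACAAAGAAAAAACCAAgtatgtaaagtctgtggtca
Kcnq1ot1-201, bases 69561 to 69610, chr7:142780677-142780726: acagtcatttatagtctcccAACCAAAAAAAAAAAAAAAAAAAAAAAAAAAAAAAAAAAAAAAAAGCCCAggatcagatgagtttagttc
Malat1-201 held 1 such tract, 291 bases before its annotated 3′ end. That end need not be the end of the mature RNA, and whether the tract is the A-rich stretch next to the cut was not examined. Neat1-201 held 1, at 9386 bases from its end, and Neat1-202 (3014 bases) held none. Kcnq1ot1-201 held 16, the longest run being 41 As in the one shown. A tract of this kind was present in the longest transcript of 14.96% of all genes, 14.2% of lncRNA genes and 26.2% of protein-coding genes, and longer transcripts have more room for one. A match describes the letters only, and reads were not placed along the transcripts here.

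The 5 libraries held between 7151 and 19189 deposited barcodes of at least 500 UMIs. Barcodes with at least 200 detected genes and a mitochondrially encoded share of at most 5% were kept. They numbered 6872 in the 7-day control, 18284 after photons, 17884 after protons, 10339 in the 11-day control and 1418 in tissue, and held 6008786 (tissue) to 35908294 (11-day control) UMIs. A pair of libraries stood apart. In tissue 85.6% of barcodes had fewer than 200 genes, and in the 11-day control 27.5% of barcodes exceeded the mitochondrial limit, against 3.90% to 4.72% in the 7-day libraries. Of the 1950 tissue barcodes with at least 200 genes, 532 exceeded it. Median UMIs of kept barcodes were 904, 1079 and 981 in the 7-day libraries (control, photon, proton) but 3078 at day 11 and 2392 in tissue, and median ribosomal protein shares were 38.4%, 36.3% and 35.3% against 17.9% and 2.64%. The file headers name another software version for the 11-day library than for the others. Any 2 libraries shared 33 to 98 barcode sequences. Of the 7 luminal and 4 basal duct markers, all 11 reached 20 CPM (UMIs per 1000000 UMIs of the summed barcodes) in each mSGO library, so the epithelial label was borne out there. Acinar markers summed to 0, 0, 0.036 and 9.61 CPM in the mSGO libraries (same order) and to 7608 CPM in tissue, where basal duct markers summed to 7.32 CPM and erythrocyte markers to 3029 CPM.

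Malat1 was an abundant RNA of every mSGO library and less so of the tissue. Summed over kept barcodes, its level was 22328 CPM in the 7-day control (366089 UMIs), 21855 CPM after photons (633907 UMIs) and 23689 CPM after protons (658147 UMIs). It was 32378 CPM in the 11-day control (1162627 UMIs) and 4309 CPM in tissue (25892 UMIs). The 3 libraries of 7 days thus lay close together, the 11-day control above them and tissue well below.

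Neat1, counted here as 1 gene because 3′ UMIs were not assigned to its isoforms, had 460 CPM in the 7-day control, 322 CPM after photons and 283 CPM after protons. It reached 1093 CPM at day 11 and 81.7 CPM in tissue, from 491 UMIs in tissue to 39239 at day 11. Kcnq1ot1 had 36.3, 29.9 and 23.0 CPM in the 7-day libraries (control, photon, proton), 105 CPM at day 11 and 27.6 CPM in tissue, where that level rests on 166 UMIs. The order of the libraries was the same for Neat1 and Kcnq1ot1 except that tissue had the lowest Neat1 level and lay between proton and photon for Kcnq1ot1. Kcnq1ot1 lies antisense to Kcnq1, and whether strand was used in counting is not given in the sources used here.

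The filter on barcodes mattered to all 3 RNAs. Over every deposited barcode Malat1 stood at 25932, 29462, 32414, 38105 and 3500 CPM (7-day control, photon, proton, 11-day control, tissue). Neat1 stood at 541, 462, 407, 1284 and 79.9 CPM in the same order. Kcnq1ot1 stood at 48.0, 45.8, 36.8, 133 and 24.3 CPM. In the 4 mSGO libraries each RNA was higher without the filter, whereas in tissue each was lower, because the many tissue barcodes under 200 genes held Malat1 at 739 CPM, Neat1 at 17.0 CPM and Kcnq1ot1 at 3.59 CPM.

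**Figure D1:**
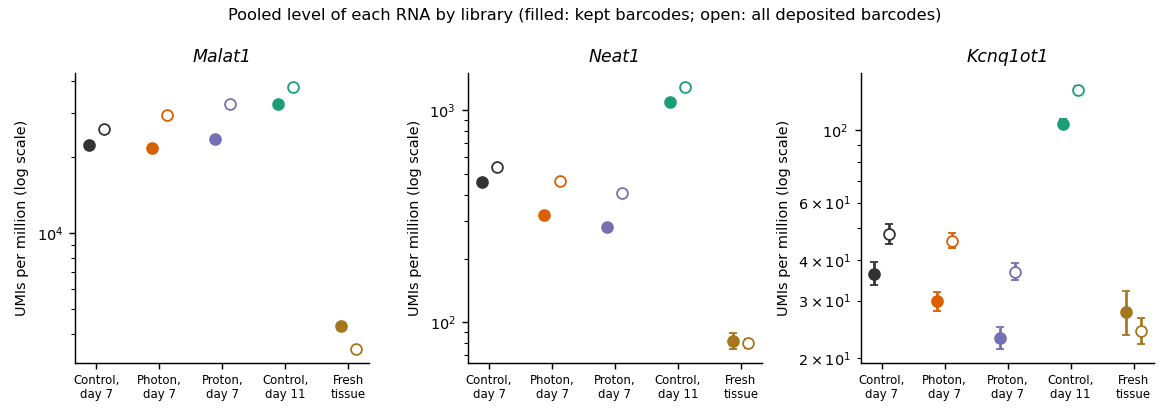
Pooled level of each lncRNA by library, in CPM on a log axis, with filled points for kept barcodes, open points for all deposited barcodes and bars for the 95% counting interval. Malat1 is nearly level across the 7-day libraries (21855 to 23689 CPM), all 3 RNAs are highest in the 11-day control, and the open points lie above the filled ones in the mSGO libraries.

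Behind the near-equal Malat1 levels, the RNA was spread over barcodes in different ways. At least 1 Malat1 UMI was found in 86.0% of kept barcodes of the 7-day control, 89.5% after photons, 76.5% after protons, 99.8% at day 11 and 52.3% in tissue. The median Malat1 share of a barcode's UMIs was 0.215%, 0.210%, 0.123%, 3.21% and 0.0239% in that order, while single barcodes reached 38.6%, 40.1%, 48.8%, 28.5% and 17.6%. A detected UMI is a weak sign of expression here. In the erythrocyte-like tissue cluster, named for haemoglobin genes whose mature cells hold no nucleus, 38.3% of barcodes had a Malat1 UMI at a median depth of 2339.5 UMIs, which is above the median depth of 904 to 1079 UMIs in the 7-day libraries. The 5 erythrocyte markers came to 3029 CPM over all kept tissue barcodes, a level at which haemoglobin cannot fill that cluster's RNA, so its barcodes are not shown to be intact red cells and are no strict reference for cells without a nucleus.

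Barcodes were therefore divided at a Malat1 share of 1%. In the 7-day control 1048 of 6872 kept barcodes lay at or above it (15.3%, Clopper-Pearson interval 14.4% to 16.1%). After photons 1591 did (8.70%, 8.30% to 9.12%) and after protons 1380 did (7.72%, 7.33% to 8.12%). At day 11 nearly all did, 10221 of 10339 (98.9%, 98.6% to 99.1%), and in tissue 160 of 1418 did (11.3%, 9.68% to 13.0%). The smaller share in the irradiated libraries exceeds counting error, but each value is 1 library. The order turned among barcodes with at least 2500 genes, where the control had 93.0% (88.5% to 96.1%, 199 barcodes), the photon library 97.6% (94.8% to 99.1%, 249) and the proton library 97.3% (94.1% to 99.0%, 219), with intervals that overlap. With at least 2000 UMIs the shares were 44.9%, 40.5% and 39.6%.

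The distribution of the 7-day control was sparse just above that line. A Malat1 share from 0.1% to 0.5% was held by 51.1% of its barcodes and a share from 0.5% to 1% by 6.55%. Shares from 1% to 2% and from 2% to 5% were held by 1.86% and 6.13%. In the photon library the same classes held 62.3%, 5.88%, 0.476% and 2.41% of barcodes, and in the proton library 51.6%, 2.01%, 0.324% and 1.82%. Fewer barcodes of each 7-day library thus lay from 1% to 2% than on either side. The 11-day control had a single mode, with 80.7% of barcodes from 2% to 5%. In tissue 47.7% of barcodes had no Malat1 UMI and 5.50% lay from 2% to 5%.

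**Figure D2:**
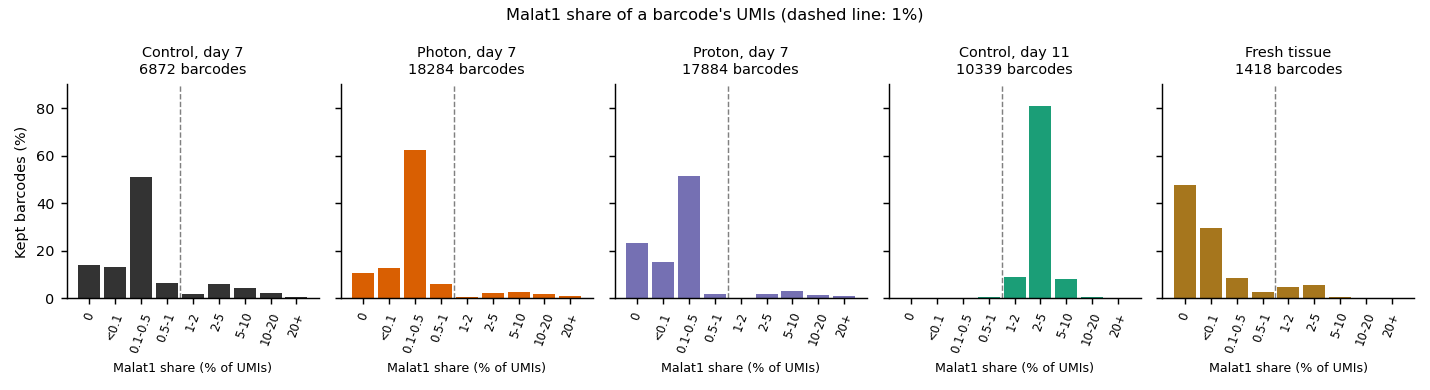
Malat1 share of UMIs per barcode on the horizontal axis and percent of kept barcodes on the vertical axis, by library, with a dashed line at 1%. Each 7-day library has a large mass under 1% and a small one above it, while 98.9% of the 11-day barcodes lie at or above the line.

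The few barcodes at or above 1% carried nearly all Malat1 of the 7-day libraries. They held 96.2% of the control's Malat1 UMIs, 93.4% of the photon library's and 96.1% of the proton library's, together with 42.2%, 29.6% and 29.7% of all UMIs. In tissue they held 71.9% of Malat1 UMIs and 13.3% of all UMIs. Such barcodes were deeper than the rest in the 7-day libraries, with medians of 5889.5, 4387 and 5343 UMIs against 857, 1052 and 961 UMIs under 1%. At day 11 the medians were 3075 and 3396.5 UMIs, the other way round. The 50% of Malat1 UMIs in the most loaded barcodes came from 4.05%, 2.53% and 2.22% of barcodes in the 7-day libraries, 31.5% at day 11 and 4.23% in tissue.

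Depth alone can set such shares, so each barcode was thinned to 500 UMIs, which left none out. The mean Malat1 count was then 5.97 in the 7-day control, 5.05 after photons, 4.53 after protons, 17.0 at day 11 and 1.81 in tissue. Its Fano factor, the variance over the mean, which would be near 1 for even sampling, was 45.6, 53.9, 63.6, 3.88 and 18.8 in that order. The factor grows with the mean, so the 7-day libraries and tissue are not ranked by it, while day 11 had the highest mean and the lowest factor. For Neat1 the Fano factors were 2.41, 2.03, 2.01, 1.38 and 1.74, and for Kcnq1ot1 they were 1.25, 1.22, 1.26, 1.04 and 1.45, values that low counts hold down.

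Neat1 went with Malat1 across the barcodes of each library, and Kcnq1ot1 did so in the 7-day libraries and tissue. In barcodes at or above 1% Malat1, Neat1 stood at 1050 CPM in the 7-day control, 1024 CPM after photons, 908 CPM after protons, 1102 CPM at day 11 and 254 CPM in tissue. Under 1% it stood at 30.6, 25.5, 18.6, 299 and 55.3 CPM. Kcnq1ot1 stood at 78.4, 96.6, 72.7, 105 and 108 CPM at or above 1% and at 5.59, 1.81, 2.00, 85.4 and 15.4 CPM under it. Its day-11 intervals overlapped, 102 to 108 CPM at or above 1% and 59.2 to 119 CPM under it, the latter from 34 UMIs. Within the Malat1-rich barcodes the mSGO libraries were therefore closer to each other in Neat1 and Kcnq1ot1 than over all barcodes. In Malat1 itself they were further apart, at 50966, 68890, 76621 and 32671 CPM.

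The thinned counts gave the same picture at equal depth. With 0 Malat1 UMIs of 500, Neat1 was detected in 0.975% of 7-day control barcodes, 1.26% of photon and 0.806% of proton barcodes. With 5 to 24 Malat1 UMIs it was detected in 31.6%, 23.6% and 24.9%, and with at least 25 in 45.7%, 46.2% and 43.4%. Going from 0 to 1 to 4 Malat1 UMIs left it near its lowest value (1.16%, 1.18% and 0.880%). At day 11 the shares with 1 to 4, 5 to 24 and at least 25 Malat1 UMIs were 19.0%, 36.9% and 49.1%. In tissue Neat1 reached 5.41% with 5 to 24 Malat1 UMIs and 42.9% with at least 25, the last from 14 barcodes. For Kcnq1ot1 the shares with 0 and with at least 25 Malat1 UMIs were 0.127% and 6.33% in the 7-day control, 0.0524% and 6.19% after photons and 0.0611% and 4.48% after protons. At day 11 Kcnq1ot1 showed no such rise. Its shares with 1 to 4, 5 to 24 and at least 25 Malat1 UMIs were 8.23%, 5.12% and 6.69%.

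The ratio of Neat1 to Malat1 is given on both sides of the 1% line as a description, since the line itself selects on Malat1, the denominator. In the 7-day control there were 21.0 Neat1 UMIs per 1000 Malat1 UMIs under 1% (interval 18.6 to 23.6) and 20.6 at or above it (20.1 to 21.1). The photon library had 12.5 (11.5 to 13.7) and 14.9 (14.6 to 15.2), and the proton library 14.2 (12.7 to 15.7) and 11.8 (11.6 to 12.1). The intervals overlapped in the control alone, and the difference was in opposite directions after photons and protons. The ratio was higher under 1% at day 11, 48.3 (39.8 to 58.0) against 33.7 (33.4 to 34.1), and in tissue, 39.5 (35.0 to 44.5) against 10.9 (9.45 to 12.5). Kcnq1ot1 had 3.84 UMIs per 1000 of Malat1 under 1% and 1.54 at or above it in the 7-day control, 0.891 and 1.40 after photons, and 1.52 and 0.949 after protons.

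The mitochondrially encoded share, the part of a barcode's UMIs from 13 genes of the mitochondrial genome, is commonly used to set damaged cells aside. Here Malat1 was much higher in 7-day barcodes with more of it. In the control, Malat1 stood at 9813 CPM at a share under 1% (5999 barcodes), 46434 CPM from 1% to 5% (808 barcodes) and 152923 CPM from 5% to 10% (231 barcodes). In the photon library the levels were 5804, 61889 and 146644 CPM, and in the proton library 5827, 64954 and 180106 CPM. The percent of control barcodes with at least 1% Malat1 was 4.62% at a mitochondrial share under 1% and 87.4% from 1% to 5%. The barcodes over the limit of 5% thus had a higher summed Malat1 level than those under it, although in the proton library the barcode with the highest share, 48.8%, was a kept one. From 10% to 20% the level was no longer higher by much, 147850, 150557 and 182126 CPM.

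The other libraries had the same direction with other steps. At day 11 Malat1 was level below a share of 5%, at 30749 CPM under 1% and 32192 CPM from 1% to 5%. It stood at 75936 CPM from 5% to 10% and 94273 CPM from 10% to 20%. The day-11 barcodes of those last classes were shallow, with medians of 893 and 848 UMIs. Their ribosomal protein shares were 2.56% and 2.36%. In tissue the levels were 2641, 4945, 11677 and 17323 CPM over the same 4 classes.

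Neat1 and Kcnq1ot1 followed the mitochondrial share as well. Neat1 stood at 160, 1084, 2672 and 3829 CPM in the 7-day control over the 4 classes up to 20%. It stood at 83.1, 934, 2327 and 2844 CPM after photons and at 69.4, 794, 2144 and 2691 CPM after protons. Kcnq1ot1 stood at 10.7, 88.5, 371 and 417 CPM in the control, 5.79, 90.3, 225 and 371 CPM after photons and 4.14, 68.3, 216 and 292 CPM after protons. In the last class of the control these rest on 107 barcodes.

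Against the ribosomal protein share, the part of UMIs from 85 genes of ribosomal proteins, the direction was opposite. In the 7-day control Malat1 stood at 110109 CPM at a share of 10% to 20% (186 barcodes), 64888 CPM from 20% to 30%, 21896 CPM from 30% to 40% and 11992 CPM from 40% to 50%. After photons the levels were 140326, 91523, 12462 and 29196 CPM, and after protons 166409, 87175, 12219 and 49062 CPM. The last of these classes was above the one before it in the irradiated libraries, and the control stood at 54488 CPM at 50% and above (16 barcodes). At day 11 Malat1 stood at 89558 CPM in barcodes under 10% and at 33500, 29671 and 29950 CPM in the next 3 classes. Tissue barcodes were nearly all under 10%, at 6762 CPM. Neat1 stood at 2973, 1492, 479 and 148 CPM over the 4 control classes, and Kcnq1ot1 at 335, 127, 37.7 and 14.2 CPM.

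The relation to total UMIs differed between the libraries. In the 7-day control Malat1 stood at 4156 CPM in barcodes of 500 to 1000 UMIs, 54554 CPM from 1000 to 2000, 43448 CPM from 2000 to 4000, 20646 CPM from 4000 to 8000 and 34556 CPM above. In the photon library the order was upward, 4422, 16385, 46075, 50007 and 50467 CPM, as it was after protons, 2536, 17965, 52844, 53410 and 58372 CPM. At day 11 it was downward, 93789, 65391, 34740, 30723 and 25670 CPM. By this summed level the shallowest class was the lowest in the 7-day libraries and the highest at day 11. In the 7-day libraries few barcodes carried most Malat1, so summed levels do not describe the typical barcode of a class.

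**Figure D3:**
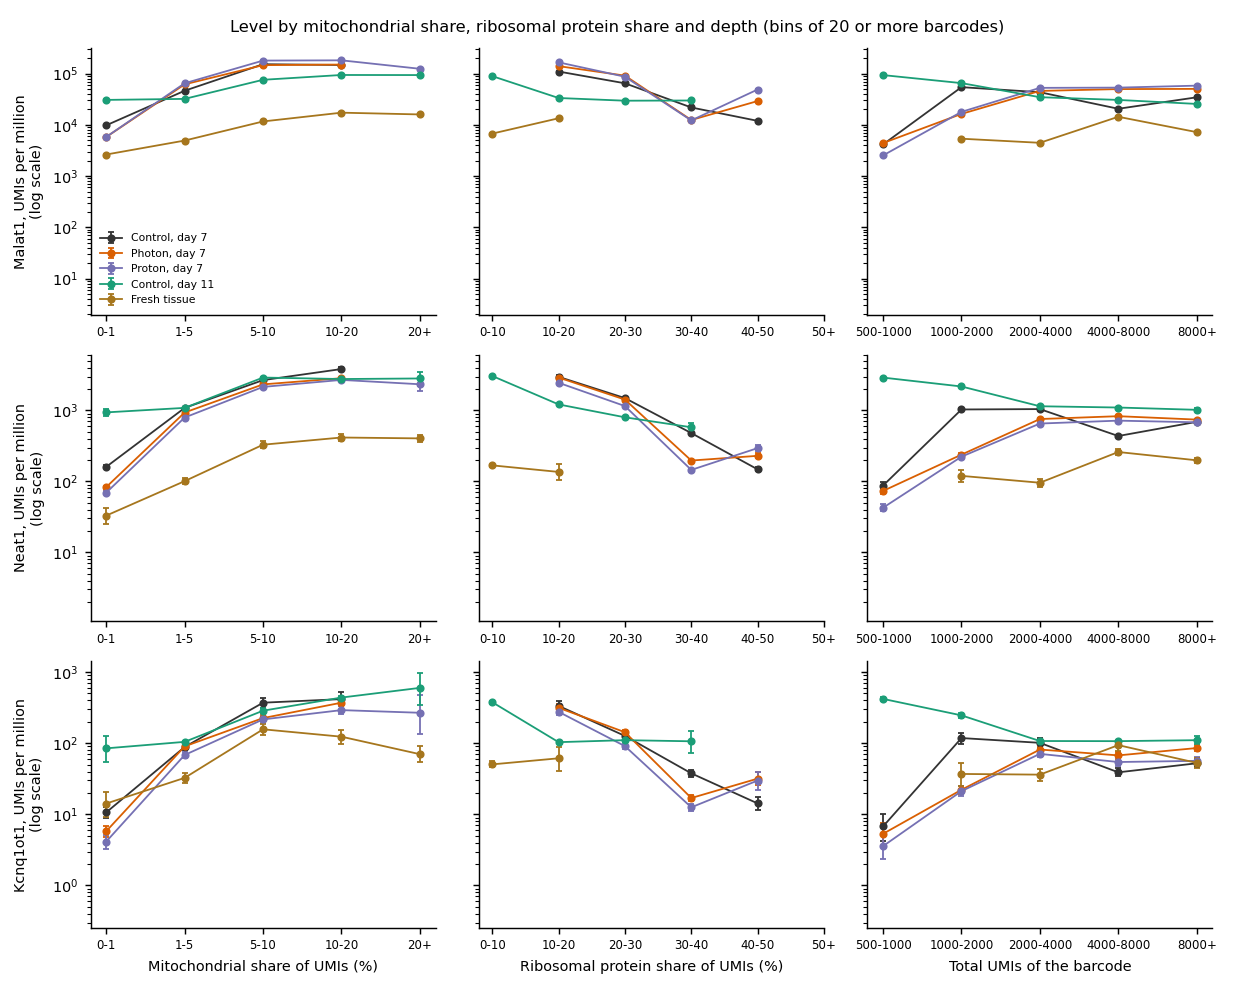
Level of each lncRNA (rows of panels, CPM on a log axis) in barcodes grouped by mitochondrially encoded share, ribosomal protein share and total UMIs (columns), 1 line per library, with barcodes of at least 200 genes and classes of at least 20 barcodes. From a mitochondrial share under 1% to one of 5% to 10% the mSGO lines go up, from 9813 to 152923 CPM for Malat1 in the 7-day control, and by total UMIs the 11-day line goes down while the irradiated lines go up.

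Spearman's rho over barcodes thinned to 500 UMIs describes the same relations, for points that share a library and its free RNA. Between Malat1 and total UMIs rho was 0.18 in the 7-day control (n = 7151), 0.16 after photons (n = 19189), 0.19 after protons (n = 18635), -0.61 at day 11 (n = 14266) and 0.26 in tissue (n = 1950). With the mitochondrial share rho was 0.35, 0.30, 0.26, 0.60 and 0.28, and with the ribosomal protein share it was -0.39, -0.32, -0.27, -0.65 and 0.043. For Neat1, rho was 0.25, 0.25, 0.26, -0.22 and 0.040 with total UMIs, 0.42, 0.37, 0.35, 0.26 and 0.14 with the mitochondrial share, and -0.33, -0.32, -0.29, -0.35 and -0.085 with the ribosomal protein share. Under the 5% mitochondrial limit the day-11 values for Malat1 came to -0.17, 0.079 and -0.21 (total UMIs, mitochondrial and ribosomal protein share), and the tissue values with the mitochondrial share to -0.034 for Malat1 and -0.0030 for Neat1. Under that limit the day-11 value of Neat1 with total UMIs turned to 0.013. Kcnq1ot1, with few UMIs, stayed from -0.15 to 0.17 throughout.

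The sign with total UMIs depended on which 7-day barcodes were taken. Among those with a mitochondrial share of at least 1%, rho between Malat1 and total UMIs was -0.43 in the control (n = 1152), -0.32 after photons (n = 2439) and -0.25 after protons (n = 2165). In those barcodes rho with the mitochondrial share was 0.61, 0.54 and 0.59. Under 1% both were near 0, at -0.094, -0.10 and -0.057 with total UMIs and at -0.065, -0.023 and -0.044 with the mitochondrial share. The positive rho over all 7-day barcodes was thus not found inside either set, and within the first set the direction was that of day 11.

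The first comparison of the design asks how mSGOs that had received 7 Gy of photons differed from the control 2 days later. Levels were compared on the log2 scale after 1 CPM was added to each, and a ratio of at least 0.5 either way (1.41-fold) counted as called for genes with at least 200 UMIs over both libraries and 20 CPM in either. Neat1 was lower after photons, at 322 against 460 CPM (log2 ratio -0.52, interval -0.56 to -0.47). Malat1, at 21855 against 22328 CPM, had a ratio of -0.031 (-0.037 to -0.025), and Kcnq1ot1, at 29.9 against 36.3 CPM, one of -0.27 (-0.42 to -0.12). Of the 3 genes, 1 was called lower and 0 higher, where 2.37% of 4344 genes were called lower and 4.19% higher. The median of all genes was 0.081, and 2.26% of genes lay below Neat1.

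After protons, 2 of the 3 were called lower, where 2.47% of 4340 genes were called lower and 4.59% higher. Neat1 stood at 283 against 460 CPM (-0.70, -0.75 to -0.66) and Kcnq1ot1 at 23.0 against 36.3 CPM (-0.64, -0.80 to -0.47). Malat1 had a ratio of 0.085 (0.080 to 0.091), close to the median of all genes at 0.10. Below Neat1 lay 0.714% of genes and below Kcnq1ot1 1.18%. Both irradiated libraries are set against the same control library, so the likeness of their ratios is no separate evidence.

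Protons and photons were also set directly against each other. The proton over photon ratio was 0.12 (0.11 to 0.12) for Malat1, -0.18 (-0.23 to -0.14) for Neat1 and -0.37 (-0.52 to -0.22) for Kcnq1ot1. None of the 3 was called, where 0.713% of 4349 genes were called higher and 0.851% lower.

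These ratios moved with the makeup of barcodes, which differed between the libraries. Among barcodes with at least 1% Malat1, the Neat1 ratio was -0.036 (-0.081 to 0.0091) after photons and -0.21 after protons, and that of Kcnq1ot1 was 0.30 and -0.11 (-0.28 to 0.062). With a mitochondrial share of at least 1%, Malat1, Neat1 and Kcnq1ot1 had ratios of 0.43, -0.17 and 0.082 after photons and 0.53, -0.38 and -0.32 after protons. With a share under 1% they had -0.76, -0.94 and -0.78 after photons and -0.75, -1.20 and -1.18 after protons. In barcodes of at least 2000 UMIs the ratios were 0.55, 0.076 and 0.40 after photons and 0.68, -0.14 and -0.079 after protons. The near-zero Malat1 ratio over all kept barcodes thus lies between a higher level in one set and a lower level in the other. The calls of Neat1 were not met in the Malat1-rich set, nor without the mitochondrial limit, where its ratios were -0.23 and -0.41.

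The 11-day control was compared with the 7-day control, 2 libraries that differ in days of culture, animals, run and software. All 3 RNAs were higher, Malat1 at 32378 against 22328 CPM (0.54, 0.53 to 0.54), Neat1 at 1093 against 460 CPM (1.25, 1.21 to 1.28) and Kcnq1ot1 at 105 against 36.3 CPM (1.504, 1.38 to 1.63). Of the 3 genes 3 were called higher, but so were 64.6% of 6598 genes, with 10.9% called lower, and the median of all genes was 0.97. Relative to that median Malat1 was at -0.43, Neat1 at 0.28 and Kcnq1ot1 at 0.54. With median-of-ratios scaling 30.2% of genes were called higher and 43.2% lower, the 3 ratios became -0.53, 0.18 and 0.45, none of the 3 stayed called higher and Malat1 was called lower. With a mitochondrial share of at least 1% the ratios were -0.62, -0.033 and 0.18. Within barcodes with at least 1% Malat1 the Neat1 ratio was 0.069 and that of Kcnq1ot1 0.42. Software of the 11-day version counts intronic reads by default, and whether it did here is not given in the sources used here.

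Freshly isolated tissue was compared with the 7-day control in the same way. Malat1 stood at 4309 against 22328 CPM (-2.37, -2.39 to -2.35), Neat1 at 81.7 against 460 CPM (-2.48, -2.61 to -2.35) and Kcnq1ot1 at 27.6 against 36.3 CPM (-0.38, -0.64 to -0.13). Of the 3, 2 were called lower, where 87.1% of 4251 genes were called lower and 6.66% higher. The median of all genes was -1.76, which Malat1 and Neat1 lay below by 0.61 and 0.71. Kcnq1ot1 lay above it by 1.38, with 88.5% of genes below it. Under median-of-ratios scaling 18.3% of genes were called higher and 59.3% lower, and Kcnq1ot1 turned to 0.63. Its ratio was also above 0 without the mitochondrial limit (0.12), as a mean of per-barcode shares (0.32) and at a mitochondrial share under 1% (0.38). It was past the threshold the other way with at least 2500 genes (-1.21), with at least 2000 UMIs (-0.62), without a gene minimum (-1.49), over totals without mitochondrial and ribosomal protein genes (-0.97) and at a mitochondrial share of at least 1% (-1.45). Erythrocyte, macrophage and endothelial markers summed to 3029, 1204 and 447 CPM in tissue against 0, 14.7 and 2.81 CPM in the 7-day control. Their part in these ratios was not tested.

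**Figure D4:**
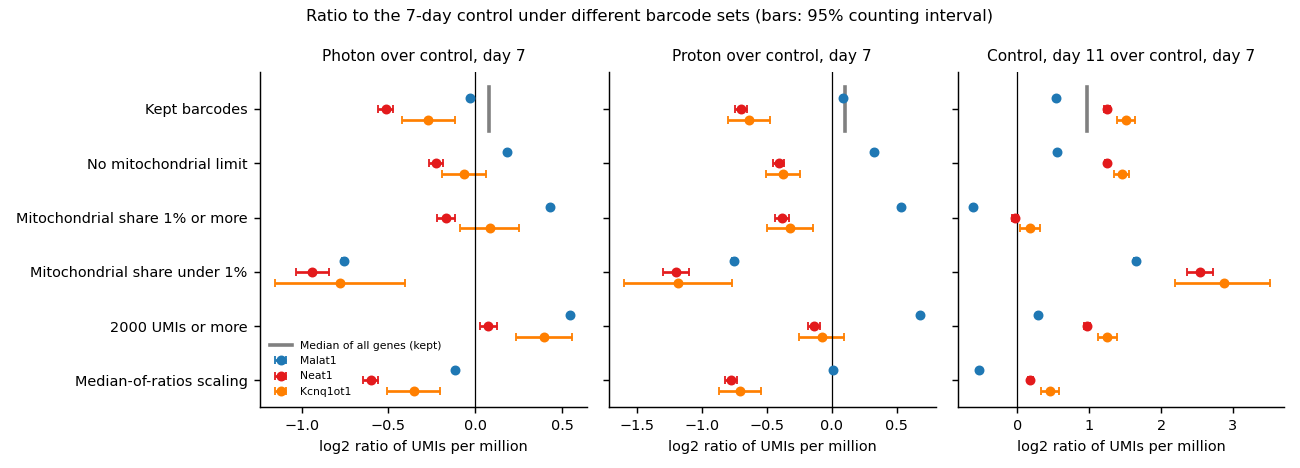
Log2 ratio of each lncRNA over the 7-day control, for photon, proton and 11-day control, under 6 choices of barcodes or scaling, with 95% counting intervals and a grey bar for the median of all genes. The Malat1 ratio after photons runs from -0.76 at a mitochondrial share under 1% to 0.55 in barcodes of at least 2000 UMIs, and the 11-day Neat1 ratio runs from -0.033 to 2.54.

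Barcodes were also grouped by Leiden clustering of 2000 variable genes that left out the 3 lncRNAs. Those of the 7-day libraries fell into 6 clusters, none of which could be named, since none had 3 fixed markers of a cell type. Clusters 1 to 4, with most barcodes of the 3 libraries, had little Malat1 in any library, from 745 to 2466 CPM. Cluster 5 had 44206 CPM in the control (835 barcodes), 54876 CPM after photons (991) and 63417 CPM after protons (1005), at a median of 6760 UMIs and a mitochondrial share of 1.46%. Its leading genes included mt-Nd4l, Xist and Ogt. Cluster 6 had 101785 CPM in the control (235 barcodes), 149266 CPM after photons (576) and 169474 CPM after protons (390), at 1881 UMIs and 4.15%, and Tsix led it. The 2 Malat1-rich clusters thus differed in depth and in mitochondrial share, and in both Malat1 was lowest in the control.

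Neat1 varied less over the libraries inside cluster 6 than inside cluster 5. It stood at 948, 884 and 786 CPM in cluster 5 (control, photon, proton) and at 1851, 1826 and 1782 CPM in cluster 6, but at only 14.3 to 43.8 CPM in clusters 1 to 4. Kcnq1ot1 stood at 70.7, 83.3 and 62.7 CPM in cluster 5 and at 162, 176 and 150 CPM in cluster 6. Clusters 5 and 6 held 12.2% and 3.42% of kept control barcodes, 5.42% and 3.15% of photon barcodes and 5.62% and 2.18% of proton barcodes.

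At day 11 Malat1 was at 21112 CPM or more in 10 of 11 clusters. The cycling-like cluster, named from Mki67 and other division genes, was the lowest of these, and cluster 2, led by Cdo1 and Zbtb16, had 36498 CPM. Cluster 10 stood apart at 99843 CPM, with 114 barcodes, a median of 764.5 UMIs, a mitochondrial share of 4.68% and a ribosomal protein share of 2.60%. Cluster 11 had 1271 CPM, with 33 barcodes and a ribosomal protein share of 34.0%, near the 35.6% to 38.9% of the 7-day clusters 1 to 4. Neat1 varied more among the clusters than Malat1 did. It stood at 412 CPM in the cycling-like cluster, 746 CPM in the cornifying-like cluster and 555 CPM in cluster 5, led by the imprinted genes Meg3 and Dlk1. In cluster 7, led by the kallikrein Klk1b11 and by Crisp3, it stood at 1360 CPM, in cluster 2 at 1814 CPM, in cluster 10 at 4628 CPM and in cluster 11 at 0 UMIs. Kcnq1ot1 ran from 77.2 CPM in the cornifying-like cluster to 159 CPM in cluster 8, led by the smooth-muscle actin gene Acta2, apart from cluster 10 with 299 CPM and cluster 11 with 0 UMIs.

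In tissue the levels differed widely among the clusters, also between clusters that shared markers. The endothelial-like cluster had Malat1 at 23135 CPM with a UMI in 100% of barcodes (median 3556 UMIs), and the granular or striated duct-like cluster had 5729 CPM with a UMI in 58.8% (1663 UMIs). The duct-like level rests on few barcodes, since the median Malat1 share was 0.0469% and 4.20% of barcodes reached 1%. In the endothelial-like cluster these values were 2.22% and 92.5%. The erythrocyte-like cluster had 240 CPM, the acinar-like cluster 281 CPM and the macrophage-like cluster 380 CPM. These 3 were thus close together, and in the macrophage-like cluster 37.4% of barcodes had a Malat1 UMI against 38.3% in the erythrocyte-like one, at medians of 2265 and 2339.5 UMIs. Unnamed cluster 7 was led by Smgc, a fixed acinar marker that codes for submandibular gland protein C. It held 4 of 7 luminal duct, 2 of 7 acinar and 2 of 4 pro-acinar markers. Its Malat1 level was 10801 CPM, at a median of 1145 detected genes. Over all kept tissue barcodes Smgc had 7156 of the 7608 CPM of acinar markers, so the acinar-like cluster is not the only one with acinar RNA. Unnamed cluster 10, led by the neutrophil genes S100a8 and Retnlg and holding 6 of 7 macrophage markers, had 14734 CPM at 1863 genes. Unnamed cluster 6, with 2 of 6 endothelial markers, had 945 CPM at 299.5 genes. The erythrocyte-like, acinar-like and macrophage-like clusters had medians of 264, 226 and 352 genes and the endothelial-like one 1385, and the part of depth in these levels was not tested. Neat1 was highest in cluster 7, at 343 CPM, against 169 CPM in the endothelial-like and 24.5 CPM in the erythrocyte-like cluster. Kcnq1ot1 stood at 120 CPM in cluster 7 and 3.06 CPM in the erythrocyte-like cluster.

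**Figure D5:**
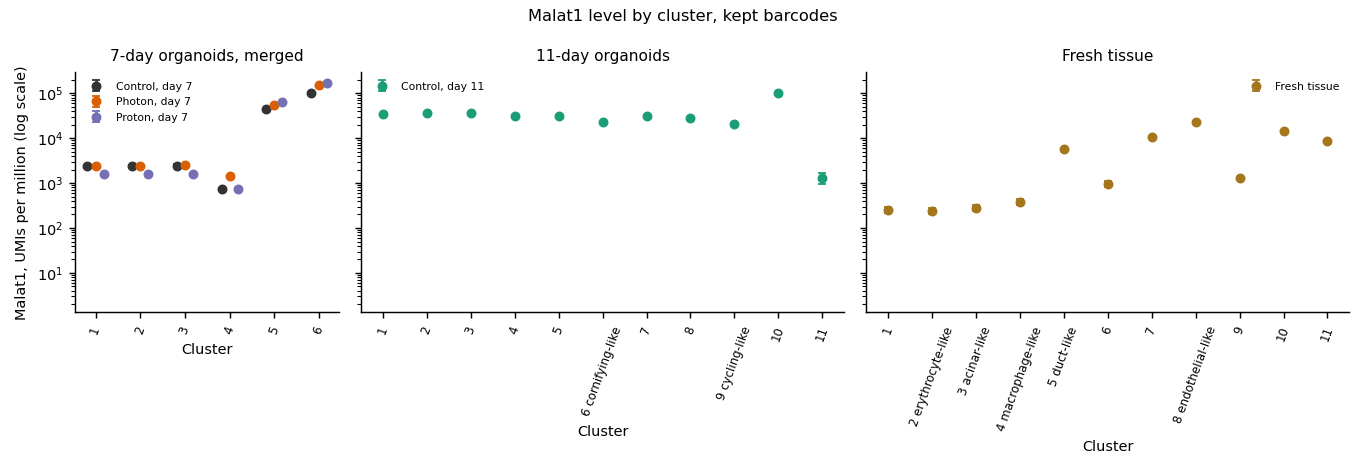
Malat1 level by cluster in CPM on a log axis, for the merged 7-day libraries (1 point per library), the 11-day control and the tissue. In the 7-day libraries 4 clusters lie at or under 2466 CPM and 2 at or above 44206 CPM, while 10 of 11 clusters of day 11 lie at or above 21112 CPM.

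The genes whose thinned counts went most with Malat1 over barcodes were ranked by the median of Pearson's r over the 5 libraries, among 1450 genes, in kept barcodes and so under the 5% mitochondrial limit. The 8 highest were mt-Co1 (0.58), Neat1 (0.49), mt-Co2 (0.46), mt-Nd2 (0.43), mt-Cytb (0.42), Xist (0.42), mt-Nd1 (0.41) and mt-Co3 (0.40). Neat1 kept a positive r in each library, 0.49, 0.50, 0.52, 0.23 and 0.38 (7-day control, photon, proton, 11-day control, tissue). So did Xist, the nuclear RNA that coats the inactive X chromosome, with 0.42, 0.48, 0.44, 0.11 and 0.39. The 6 mitochondrial genes among the 8 were near 0 at day 11 and in tissue, with r from -0.048 to 0.054, whereas without the limit rho of Malat1 with the mitochondrial share was 0.60 and 0.28 there. The 5 lowest were Rps24 (-0.16), Rpl13 (-0.16), Rpl32 (-0.17), Gm42418 (-0.19) and S100a6 (-0.21). In tissue all 5 had an r above 0 (0.10, 0.14, 0.092, 0.019 and 0.065), and Gm42418 had 0.15 at day 11. For Neat1 the 5 highest were Malat1 (0.49), mt-Co1 (0.36), Xist (0.27), mt-Co2 (0.26) and mt-Co3 (0.25). The mitochondrial genes among these were near 0 at day 11 and in tissue, with r from -0.040 to 0.032.

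Other genes of the nuclear bodies were read beside the 3 RNAs, which themselves reached 20 CPM in every library. A listed gene that reached 20 CPM only in the library where it is high had to differ, so such genes are named and their calls are a description. Of 17 further nuclear lncRNAs 11 were in the gene lists, and in the 7-day comparisons Xist alone passed the minimum levels, at 236 CPM in the control, 193 CPM after photons (-0.29) and 186 CPM after protons (-0.34). At day 11 Xist stood at 616 CPM (1.38). Tug1, at 55.4 against 16.8 CPM, Pvt1, at 115 against 13.5 CPM, Airn, at 142 against 7.75 CPM, and Lncpint, at 198 against 4.82 CPM, passed only through the 11-day library.

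The paraspeckle proteins bind Neat1. Of 14 genes for them, 10 passed in the photon comparison, with 4 ratios above 0, 6 below and 0 called, and a median of -0.061 where that of all genes was 0.081. The RNA-binding proteins Hnrnpk and Nono stood at 0.080 and 0.15 and Nudt21 at -0.12. After protons the counts were the same, with a median of -0.049. At day 11 12 passed and 8 were called higher, among them Sfpq (1.62), a share close to the 64.6% of all genes. The list was not counted under median-of-ratios scaling, where 30.2% of all genes were called higher. Of the 8, Pspc1 (56.2 against 9.15 CPM) and Cpsf7 (47.0 against 9.70 CPM) passed only through the 11-day library.

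The nuclear speckle proteins, which share their body with Malat1, all passed against the 7-day control. After photons 3 of 15 ratios were above 0 and 12 below, and 3 were called lower, the splicing factors Srsf1 at 13.3 against 23.8 CPM (-0.80), Srsf2 at 70.3 against 110 CPM (-0.63) and Srsf3 at 58.0 against 85.7 CPM (-0.56). The same genes were called lower after protons (-0.52, -0.69 and -0.56), while Srsf5 stood at 0.42 and 0.25. The medians were -0.14 and -0.11. Srsf1 passed only through the control in both comparisons, and the shares of all genes called lower were 2.37% and 2.47%. At day 11 15 of 15 were called higher, with a median of 1.46, where 64.6% of all genes were. Under median-of-ratios scaling 30.2% of all genes were called higher, and this list was not counted under it.

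Of 12 mRNAs known to be held in the nucleus with detained introns, 10 passed after photons and 1 was called, Rsrp1 at 75.9 against 119 CPM (-0.64), and after protons 0 of 10 were called, where 2.37% and 2.47% of all genes were called lower and 4.19% and 4.59% higher. At day 11 9 of 12 were called higher, such as Ogt (2.49), Rbm39 (1.72) and Ddx5 (1.64), and 2 lower, Rsrp1 (-0.79) and Ccnl2 (-0.73), where 64.6% and 10.9% of all genes were called (30.2% and 43.2% under median-of-ratios scaling). Of the 9, Clk2 and Tia1 passed only through the 11-day library.

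The genes of the Kcnq1 imprinted domain did not share a direction in the photon, proton and 11-day comparisons. In tissue the highest ratio among those that passed was -1.69, where 87.1% of all genes were called lower. Cdkn1c (25.1 CPM in the control), Cars (31.8 CPM) and Phlda2 (38.1 CPM) thus passed there only through the control. They had to be lower, so no count is given for tissue. Of 14, 6 passed after photons, with 3 above 0 and 3 below, and Phlda2, which restrains placental growth, was called lower, at 15.6 against 38.1 CPM (-1.24), having passed only through the control. After protons Phlda2 stood at 23.1 CPM (-0.70), and Cdkn1c, a cell-cycle inhibitor that Kcnq1ot1 is known to silence in cis, was called higher at 39.0 against 25.1 CPM (0.61). Of all genes, 2.37% were called lower and 4.19% higher after photons, and 2.47% and 4.59% after protons. At day 11 Cdkn1c stood at 4.96 against 25.1 CPM (-2.13) and Kcnq1ot1's overlapping partner Kcnq1 at 67.2 against 2.68 CPM (4.21). Both passed only through the library where they were high, as did Tssc4 (20.5 against 11.0 CPM) and Phlda2 (18.2 against 38.1 CPM), so no count is given. Cars, at 82.0 against 31.8 CPM (1.34), and Cd81, at 415 against 621 CPM (-0.58), passed in both.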

How the data were processed

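The members and the gene lists read beside them were chosen with earlier results of these data known. Per the labels, sorted cells were run through a droplet 3′ kit and aligned and counted by the authors, who deposited whole-number UMI counts per gene and barcode as sparse matrices, with no normalization. The submitters' processing notes name Cell Ranger 5 and the mouse build mm10, the study's methods name GRCm39, and the file headers give software 3.0.1 for the 7-day and tissue libraries and 7.0.0 for the 11-day library. Headers name no build, and the intron and strand settings are not given in the sources used here. No coordinate was used in the analysis of counts.

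Kept barcodes had 200 or more detected genes and at most 5% mitochondrially encoded UMIs. The stricter minimum of 2500 genes, close to the filter in the study's methods, was an alternative. No doublets were removed in the main values. Deposited counts were summed per library and gene and divided by the summed total (CPM). The 5% limit took the mitochondrial share over all UMIs. Elsewhere mitochondrial and ribosomal protein shares left the 3 lncRNAs out of the total. Some kept barcodes thus exceed 5% by that second share. Log2 ratios used a pseudocount of 1 CPM and genes with at least 200 UMIs over both libraries and 20 CPM in either. With 1 library per group no test was made. Intervals are exact binomial (Clopper-Pearson) or Poisson at 95%, for counting error only. Correlations and classes of barcodes used at least 200 genes and no mitochondrial limit (the genes most like a member were ranked in kept barcodes), and counts thinned to 500 UMIs (alternative 1000). Clusters came from 2000 variable genes, 30 components, 15 neighbours and resolution 0.8 (alternative 0.4) in scanpy 1.11.5 with leidenalg 0.10.2, and were named from at least 3 markers with at least 1 among the 10 leading genes and no other type with more there. Genes named in the text are the 3 members, the 8 genes most like and 5 least like Malat1, the 5 most like Neat1, and, of each list, the 3 with most UMIs and those called; others were picked as examples after their values were seen. The scripts were tested on simulated data. Sequences and positions were read from GENCODE transcripts of GRCm39. Python 3.11.15, numpy 2.4.6, scipy 1.17.1, pandas 2.3.3, anndata 0.12.19 and matplotlib 3.10.9 were used.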

Additional observations from a re-analysis of the deposited data

How the results depend on the processing

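For photon over 7-day control, Malat1, Neat1 and Kcnq1ot1 stood at -0.031, -0.52 and -0.27 on the log2 scale in the kept barcodes. They were 0.18, -0.23 and -0.066 without the mitochondrial limit and 0.38, -0.087 and 0.54 with at least 2500 genes. The values were 0.096, -0.38 and -0.13 after Scrublet and 0.55, 0.076 and 0.40 with at least 2000 UMIs. These were -0.25, -0.78 and -0.69 as means of per-barcode shares and -0.12, -0.60 and -0.35 under median-of-ratios scaling. The ratios became -0.081, -0.57 and -0.32 over totals without mitochondrial and ribosomal protein genes and 0.43, -0.17 and 0.082 at a mitochondrial share of at least 1%. The 3 were -0.76, -0.94 and -0.78 at a mitochondrial share under 1%. Neat1 and Kcnq1ot1 stood at -0.036 and 0.30 at a Malat1 share of at least 1%.

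For proton over 7-day control, Malat1, Neat1 and Kcnq1ot1 stood at 0.085, -0.70 and -0.64 on the log2 scale in the kept barcodes. The values were 0.32, -0.41 and -0.37 without the mitochondrial limit and 0.50, -0.32 and -0.40 with at least 2500 genes. These were 0.21, -0.58 and -0.51 after Scrublet and 0.68, -0.14 and -0.079 with at least 2000 UMIs. The ratios became -0.41, -1.17 and -0.99 as means of per-barcode shares and 0.013, -0.77 and -0.71 under median-of-ratios scaling. The 3 were 0.015, -0.77 and -0.71 over totals without mitochondrial and ribosomal protein genes and 0.53, -0.38 and -0.32 at a mitochondrial share of at least 1%. Further values were -0.75, -1.20 and -1.18 at a mitochondrial share under 1%. Neat1 and Kcnq1ot1 stood at -0.21 and -0.11 at a Malat1 share of at least 1%.

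For proton over photon, Malat1, Neat1 and Kcnq1ot1 stood at 0.12, -0.18 and -0.37 on the log2 scale in the kept barcodes. These were 0.14, -0.18 and -0.31 without the mitochondrial limit and 0.11, -0.23 and -0.94 with at least 2500 genes. The ratios became 0.13, -0.21 and -0.47 with at least 2000 UMIs and -0.16, -0.39 and -0.30 as means of per-barcode shares. The 3 were 0.096, -0.20 and -0.39 over totals without mitochondrial and ribosomal protein genes and 0.098, -0.21 and -0.40 at a mitochondrial share of at least 1%. Further values were 0.0056, -0.26 and -0.40 at a mitochondrial share under 1%.

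For 11-day over 7-day control, Malat1, Neat1 and Kcnq1ot1 stood at 0.54, 1.25 and 1.504 on the log2 scale in the kept barcodes. The ratios became 0.56, 1.25 and 1.45 without the mitochondrial limit and -0.25, 0.52 and 0.76 with at least 2500 genes. The 3 were 0.50, 1.20 and 1.46 after Scrublet and 0.28, 0.97 and 1.25 with at least 2000 UMIs. Further values were 1.497, 2.20 and 2.41 as means of per-barcode shares and -0.53, 0.18 and 0.45 under median-of-ratios scaling. They were 0.18, 0.89 and 1.16 over totals without mitochondrial and ribosomal protein genes and -0.62, -0.033 and 0.18 at a mitochondrial share of at least 1%. The values were 1.65, 2.54 and 2.88 at a mitochondrial share under 1% and 0.53, 1.25 and 1.49 without shared barcodes. Neat1 and Kcnq1ot1 stood at 0.069 and 0.42 at a Malat1 share of at least 1%.

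For tissue over 7-day control, Malat1, Neat1 and Kcnq1ot1 stood at -2.37, -2.48 and -0.38 on the log2 scale in the kept barcodes. The 3 were -1.84, -1.70 and 0.12 without the mitochondrial limit and -3.01, -3.69 and -1.21 with at least 2500 genes. Further values were -3.45, -3.43 and -1.49 without a gene minimum and -2.42, -2.52 and -0.43 after Scrublet. They were -2.58, -2.75 and -0.62 with at least 2000 UMIs and -1.70, -1.75 and 0.32 as means of per-barcode shares. The values were -1.33, -1.44 and 0.63 under median-of-ratios scaling and -2.98, -3.08 and -0.97 over totals without mitochondrial and ribosomal protein genes. These were -3.32, -3.44 and -1.45 at a mitochondrial share of at least 1% and -1.89, -2.25 and 0.38 at a mitochondrial share under 1%. The ratios became -2.39, -2.48 and -0.41 without shared barcodes. Neat1 and Kcnq1ot1 stood at -2.04 and 0.45 at a Malat1 share of at least 1%.

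The splits by mitochondrial share and by Malat1 share and the removal of shared barcodes were chosen after seeing the data. Of the 15 ratios, the same were called with a pseudocount of 0.1 CPM and without shared barcodes. The call was kept by 14 after Scrublet, 14 as means of per-barcode shares, 14 without a gene minimum, 13 over totals without mitochondrial and ribosomal protein genes, 12 without the mitochondrial limit, 12 at a mitochondrial share under 1%, 11 under median-of-ratios scaling, 8 with at least 2000 UMIs, 8 with at least 2500 genes and 7 at a mitochondrial share of at least 1%. In Malat1-rich barcodes 5 of 10 were kept.

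The percent of barcodes with at least 1% Malat1 became 18.5, 12.9, 11.3, 99.1 and 17.6 without the mitochondrial limit (7-day control, photon, proton, 11-day control, tissue). With at least 2500 genes it was 93.0 in the control, 97.6 after photons, 97.3 after protons and 38.5 in tissue, from 199, 249, 219 and 26 barcodes. With at least 2000 UMIs it was 44.9, 40.5, 39.6 and, at day 11, 99.1. After Scrublet it was 10.0 (photon) and 8.96 (proton), with at least 5 Malat1 UMIs of 500 it was 9.40 (photon) and 98.2 (11-day), and without a gene minimum 1.55 in tissue. Under median-of-ratios scaling the percent of genes called was 2.59 higher and 3.82 lower for photons, 30.2 and 43.2 at day 11 and 18.3 and 59.3 in tissue, where 15.7 were called higher with a minimum of 10 UMIs alone.

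Of 135 Spearman correlations recomputed at 1000 UMIs, unthinned or with the mitochondrial limit, 111 left the 95% interval of the value at 500 UMIs with no change of sign of a rho of 0.1 or more, 19 stayed within it and 5 changed sign. With the 5% mitochondrial limit, rho at day 11 was 0.0044 for Kcnq1ot1 with the ribosomal protein share and 0.013 for Neat1 with total UMIs, and in tissue -0.034 for Malat1 and -0.0030 for Neat1 with the mitochondrial share. Unthinned, rho of Kcnq1ot1 with total UMIs at day 11 was 0.017. The log2 range of Malat1 over clusters was 7.09, 6.70, 7.83, 6.30 and 6.59 (same order) at resolution 0.8 and 6.15, 5.57, 6.61, 2.36 and 5.92 at 0.4. Thinned to 1000 UMIs, 7 of 8 genes most like Malat1 and 4 of 5 most like Neat1 were again found. Where a value differed between settings, the cause was not tested.

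No paired analysis was possible because each group is 1 library. With no replicate, spread between cultures or animals is unknown, and library, run and condition cannot be told apart. Kcnq1ot1 in tissue rests on 166 UMIs.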

Other observations

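Barcodes over the mitochondrial limit, which the main comparisons between libraries left out, held the lncRNAs at high levels in every mSGO library. Malat1 stood there at 141260 CPM in the 7-day control (279 barcodes), 142453 CPM after photons (905), 172777 CPM after protons (751), 86404 CPM at day 11 (3927) and 14727 CPM in tissue (532), all with at least 200 genes. Neat1 stood at 3119, 2555, 2404, 2901 and 378 CPM and Kcnq1ot1 at 424, 282, 259, 371 and 115 CPM in the same order. In these barcodes Malat1 was lower at day 11 than in each 7-day library, the reverse of the order in kept barcodes. Neat1 and Kcnq1ot1 at day 11 lay below the 7-day control and above the irradiated libraries.

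Kept barcodes in which Neat1 made up at least 1% of UMIs numbered 8 in the 7-day control, 8 after photons, 1 after protons, 13 at day 11 and 0 in tissue. No kept barcode of any library reached 1% Kcnq1ot1.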
